A study of Homo sapiens with 4 samples.

Results

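The genes described here encode the collagen and laminin chains of the extracellular matrix, the proteins that join them in basement membranes, fibronectin, the matricellular proteins SPARC and tenascin-C, and lysyl oxidases. They form a list of 40 genes grouped by function, and were represented by every array probe set that the platform annotation assigned to exactly 1 of them. This gave 112 of the 54675 probe sets and 38 of the 40 genes, out of 19775 genes in all. COL17A1 and LAMA3 were not analysed here. RNA came from PC3, a cell line grown from a bone metastasis of a human prostate carcinoma, and was hybridised to 1-colour Affymetrix arrays. One group of 2 arrays came from cells transfected with 40 nM of an siRNA against COUP-TFII, and the control group of 2 arrays from cells given 40 nM of a control siRNA, with RNA taken at 48 h in both. COUP-TFII is a DNA-binding protein of the nuclear receptor family, and the comparison asked which transcripts differ when it is targeted. Cells of both groups were grown in RPMI with fetal bovine serum, and the comparison is a transient transfection of a single established line. The level of the targeted transcript was not analysed here, so the siRNA labels were not checked against it.

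Collagens are trimers of alpha chains that wind into a triple helix. Fibrillar collagens form banded fibres in connective tissue, whereas collagen IV forms the sheet-like network of basement membranes, to which laminin trimers of an alpha, a beta and a gamma chain attach. Nidogens, perlecan and agrin join these networks, fibronectin forms fibrils bound by integrins, and lysyl oxidases cross-link collagen. Epithelia rest on a basement membrane, and carcinoma cells secrete matrix of their own.

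All 4 arrays had similar distributions, with median intensities from 31.7 to 32.9, and arrays correlated across probe sets at r = 0.988 within the COUP-TFII siRNA group, 0.987 within the control group and 0.975 to 0.979 between groups. Whether both arrays of a group stem from separate transfections is not stated, so each p-value reflects the spread of these arrays alone, and that spread may be technical. A control measure of RNA integrity, the 3′ over 5′ probe set ratio of ACTB, was 1.42 and 1.46 on the COUP-TFII siRNA arrays, against 1.52 and 1.83 on the control arrays. The same ratio for GAPDH was 0.994 and 0.986 on the COUP-TFII siRNA arrays, against 0.957 and 0.986 on the control arrays. The part of the ACTB ratio in the differences below was not tested. Markers of epithelium (KRT8, KRT18, KRT19, EPCAM and others, 8 of 8 measured) had intensities from 1301 to 9941, and 5 of them passed the test described below, KRT8 and KRT18 as higher and EPCAM, CDH1 and CLDN4 as lower. The 10 fibroblast markers summed to 203 and 216 on the COUP-TFII siRNA arrays and to 228 and 245 on the control arrays, with none above 85.3 on any array. Sums for 7 of 8 leukocyte markers were 167 and 172 on the COUP-TFII siRNA arrays and 155 and 164 on the control arrays. The 8 endothelial markers summed to 384 and 326 on the COUP-TFII siRNA arrays and to 310 and 337 on the control arrays, and PECAM1, at 244 and 193 on the COUP-TFII siRNA arrays against 171 and 171 on the control arrays, made up most of this. VWF, another of the endothelial markers, did not exceed 1.76 on any array, nor did the fibroblast receptor PDGFRA exceed 18.2. None of these 3 lists held a gene that passed, and the part of cell type in the matrix differences was not tested.

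The matrix genes moved in both directions after COUP-TFII siRNA. Each gene was represented by its probe set with the highest mean. Probe sets marked _x_at, for possible cross-hybridisation, were left out where the gene had another. Genes were compared on the scale log2(intensity + 16) with limma over all 19775 genes, and called at a Benjamini-Hochberg adjusted p below 0.05. Of the 38 genes, 11 were higher, 7 were lower and 20 did not pass. Among all genes tested 23.1% passed, 12.8% as higher and 10.3% as lower. The median change of the 38 genes was 0.02 on the log2 scale and that of all genes 0.01, while the median size of the change, taken without its sign, was 0.39 for the 38 genes and 0.22 for all genes. The rises held COL4A1, COL4A2, the 3 collagen VI chains, COL1A1, COL5A1, LAMB2, LAMC1, AGRN and FN1. The falls were COL4A5, COL4A6, COL8A1, COL13A1, SPARC, TNC and LOXL2. The groups did not overlap in 27 of the 38 genes, 16 higher and 11 lower, against 57.5% of all genes (30.8% higher and 26.7% lower). At least a 2-fold change with a call was seen for 4 genes, COL4A1 and COL4A2 upward and COL13A1 and SPARC downward, against 2.6% of all genes. In bulk RNA, fewer cells with a transcript and less of it per cell cannot be told apart.

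The median gap between replicate arrays was 0.11 in the COUP-TFII siRNA group and 0.13 in the control group on the log2 scale, against 0.14 and 0.13 for all genes. With 2 arrays against 2, an exact permutation test of a single gene cannot give a two-sided p below 0.333, so the calls rest on the variance that limma shares across genes.

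**Figure D1:**
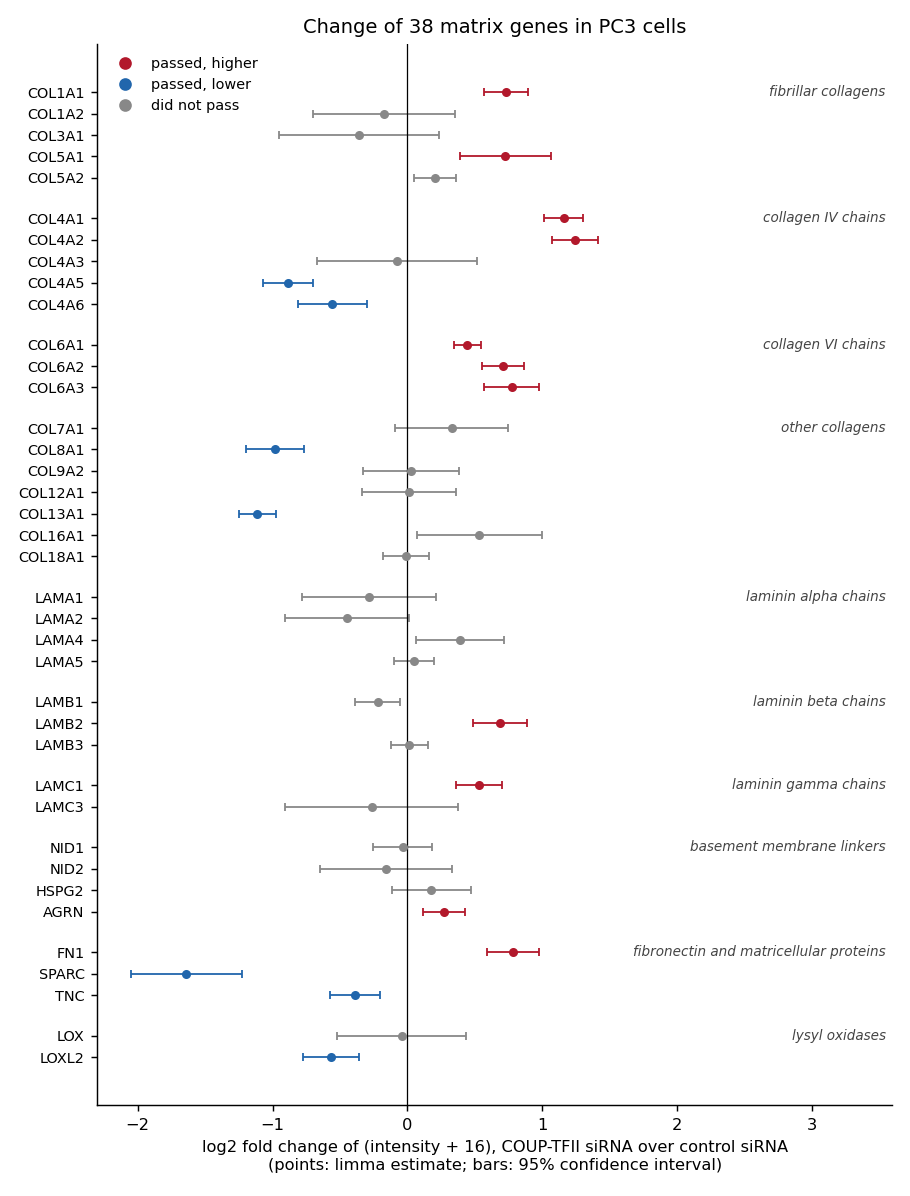
Log2 fold change of (intensity + 16), COUP-TFII siRNA over control siRNA, for the 38 matrix genes ordered by role (points, limma estimate; bars, 95% confidence interval; n = 2 arrays per group; red, passed as higher; blue, passed as lower; grey, did not pass). COL4A2 stands farthest to the right at 1.24 and SPARC farthest to the left at −1.64, and collagen IV chains lie on both sides of 0.

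Among the fibrillar collagens, 2 of 5 rose, a share of 40%. Of all genes, 23.1% passed, 12.8% as higher. COL1A1, the alpha-1 chain of collagen I, had intensities of 962 and 950 in COUP-TFII siRNA cells, against 599 and 540 in control cells. All COUP-TFII siRNA values lay above the control values, a difference of 0.73 ± 0.07 on the log2 scale (SE, limma adjusted p = 0.000136). A further probe set of COL1A1 gave 690 and 660 in COUP-TFII siRNA cells against 404 and 374 in control cells, and the other 3 of its 5 probe sets did not pass. When the 5 were averaged, the log2 fold change was 0.34 (limma adjusted p = 0.0546). COL1A2, the partner chain of COL1A1 in collagen I, stayed dim at 31.2 and 37.3 in COUP-TFII siRNA cells and 51.5 and 31.2 in control cells, and COL3A1 lay between 7.47 and 25.2 on every array, with overlapping groups for both. COL5A1, a chain of collagen V that regulates fibril diameter, had 137 and 136 in COUP-TFII siRNA cells, against 70.4 and 82.4 in control cells, a difference of 0.73 ± 0.15 on the log2 scale (SE, limma adjusted p = 0.00735). That call was lost without COUP-TFII siRNA replicate 1, COUP-TFII siRNA replicate 2 or control siRNA replicate 1 (limma adjusted p = 0.0940, 0.0880 and 0.0820). COL5A2, its partner chain, measured 1589 and 1429 in COUP-TFII siRNA cells against 1273 and 1339 in control cells and missed the threshold, with a log2 fold change of 0.20 (95% interval 0.05 to 0.36, limma adjusted p = 0.0589). COL5A2 passed in 4 of 14 alternatives. They were the replicate number as a block (limma adjusted p = 0.0342), dim genes left out (0.0129), quantile normalization (0.0443) and centring on housekeeping genes (0.00648). It did not pass with averaged probe sets (limma adjusted p = 0.113). Leaving out dim genes gave far smaller limma adjusted p-values at the same log2 fold change, as for COL4A1 (1.57e-44 against 5.29e-06). A pass under that filter therefore carries little weight.

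Collagen IV chains split by pair. Of the 5 chains listed 4 passed, a share of 80% against 23.1% of all genes. COL4A1 and COL4A2, which assemble as the network found in nearly all basement membranes, were 2.24-fold and 2.36-fold higher, whereas COL4A5 and COL4A6, chains of a network with a narrower distribution, fell. COL4A1 had 1620.4 and 1545 in COUP-TFII siRNA cells, against 718 and 680.4 in control cells, a difference of 1.16 ± 0.06 on the log2 scale (SE, limma adjusted p = 5.29e-06). COL4A2 had 1564 and 1687 in COUP-TFII siRNA cells, against 719.6 and 639 in control cells, a difference of 1.24 ± 0.08 on the log2 scale (SE, limma adjusted p = 8.51e-06). For both genes every COUP-TFII siRNA array exceeded every control array by a wide margin, and the second probe set of each passed too. That of COL4A1 read 479 and 394 in COUP-TFII siRNA cells against 157 and 190.1 in control cells, and that of COL4A2 read 218 and 206 in COUP-TFII siRNA cells against 76.6 and 105 in control cells.

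COL4A5 had 629.6 and 610.2 in COUP-TFII siRNA cells, against 1253 and 1072 in control cells, a difference of −0.89 ± 0.08 on the log2 scale (SE, limma adjusted p = 8.78e-05). Its other probe set lay between 7.82 and 15.3 on every array, and averaging the pair gave a log2 fold change of −0.38. COL4A6 had 160.4 and 148 in COUP-TFII siRNA cells, against 238 and 230.4 in control cells, a difference of −0.56 ± 0.11 on the log2 scale (SE, limma adjusted p = 0.00679). Both groups were apart for COL4A6 on this probe set, but the call was lost with its 3 probe sets averaged (−0.35, limma adjusted p = 0.125) and without COUP-TFII siRNA replicate 2, control siRNA replicate 1 or control siRNA replicate 2 (limma adjusted p = 0.0683, 0.0880 and 0.0777). COL4A3, a chain of the glomerular network, was dim, with values from 24.2 to 47.6, and its groups overlapped.

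**Figure D2:**
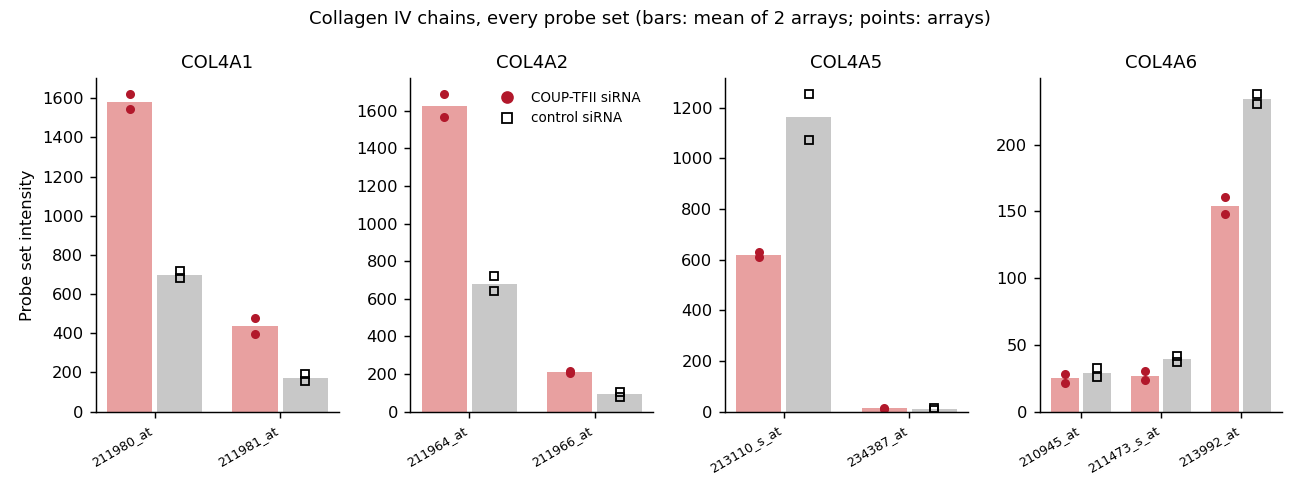
Intensity of every probe set of COL4A1, COL4A2, COL4A5 and COL4A6 (bars, mean of 2 arrays; points, single arrays; red, COUP-TFII siRNA; grey bars and open squares, control siRNA; each panel has its own linear axis). Both probe sets of COL4A1 and of COL4A2 are higher after COUP-TFII siRNA, and the brightest probe sets of COL4A5 and COL4A6 are lower.

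COL4A1 and COL4A2, and likewise COL4A5 and COL4A6, lie head to head on opposite strands and share the stretch between their start sites. The first of these pairs was higher and the other lower, while COL4A3 and its neighbour COL4A4, at 8.78 to 16.8, were dim and did not pass. Promoter windows of 250 bases before to 50 bases from the start site were taken from RefSeq (GRCh38.p14), which matched 28 of the 38 genes. The start sites of COL4A1 and COL4A2 are 127 bases apart, and those of COL4A5 and COL4A6 are 380 bases apart (1416 for a further start of COL4A6). The windows of COL4A2 and COL4A5 are shown because they hold or adjoin the region shared with the partner chain, and those of COL13A1 and SPARC because these genes were at least 2-fold lower. Capitals mark matches on either strand to 5 motifs, and no matches overlap in these windows. The motifs were AGGTCA, the repeat unit bound by many nuclear receptors, GGGCGG, known as the GC box, and CCAAT, named for its letters. The others were CCCTCCCC, the CTC box described between the collagen IV genes, and TGANTCA, which AP-1 binds. The COL4A2 window is chr13:110307034-110307333 on the plus strand, that of COL4A5 is chrX:108439588-108439887 on the plus strand, that of COL13A1 is chr10:69801656-69801955 on the plus strand and that of SPARC is chr5:151686866-151687165 on the minus strand.
COL4A2: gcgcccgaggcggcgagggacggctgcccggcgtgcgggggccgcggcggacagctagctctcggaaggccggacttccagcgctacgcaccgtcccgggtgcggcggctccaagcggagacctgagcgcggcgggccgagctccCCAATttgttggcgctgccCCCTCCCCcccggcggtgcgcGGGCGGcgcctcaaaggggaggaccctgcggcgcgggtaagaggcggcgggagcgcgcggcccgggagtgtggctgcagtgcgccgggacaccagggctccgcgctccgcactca
COL4A5: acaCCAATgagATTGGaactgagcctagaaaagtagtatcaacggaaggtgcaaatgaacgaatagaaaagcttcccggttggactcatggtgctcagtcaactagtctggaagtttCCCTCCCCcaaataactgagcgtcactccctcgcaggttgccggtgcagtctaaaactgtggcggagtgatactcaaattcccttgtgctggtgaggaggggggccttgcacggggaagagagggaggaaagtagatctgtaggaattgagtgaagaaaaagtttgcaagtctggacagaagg
COL13A1: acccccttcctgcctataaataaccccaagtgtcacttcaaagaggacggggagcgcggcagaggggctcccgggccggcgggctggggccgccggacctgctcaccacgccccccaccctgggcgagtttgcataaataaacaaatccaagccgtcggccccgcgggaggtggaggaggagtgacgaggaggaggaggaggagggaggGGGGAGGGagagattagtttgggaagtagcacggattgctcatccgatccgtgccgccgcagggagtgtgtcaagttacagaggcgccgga
SPARC: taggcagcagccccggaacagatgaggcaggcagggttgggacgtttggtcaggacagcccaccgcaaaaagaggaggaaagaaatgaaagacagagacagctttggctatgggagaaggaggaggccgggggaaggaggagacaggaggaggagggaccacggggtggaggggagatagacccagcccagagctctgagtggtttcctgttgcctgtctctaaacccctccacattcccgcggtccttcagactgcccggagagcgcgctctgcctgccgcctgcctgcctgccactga

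The start site of each gene is base 251 of its window, and that of COL4A1, read leftward, is base 124 of the COL4A2 window. Between these start sites the COL4A2 window holds a CCAAT box at base 146, a CTC box at base 165 and a GC box at base 186. The COL4A5 window holds CCAAT matches at bases 4 and 12, in opposite orientations, and a CTC box at base 118. COL13A1 has a CTC box match on the reverse strand at base 210, and none of the 5 motifs is found in the SPARC window. Over all 35116 windows of the table, 13.8% hold AGGTCA, 45.0% GGGCGG, 34.6% CCAAT, 13.6% CCCTCCCC and 7.71% TGANTCA. Among the genes with a window, AGGTCA was found in 0 of 8 that rose, 0 of 5 that fell and 2 of 15 that did not pass. GGGCGG was found in 7 of 8 that rose, 2 of 5 that fell and 13 of 15 that did not pass, counting a gene once if any of its windows matched. CCAAT was found in 3 of 8 that rose, 2 of 5 that fell and 4 of 15 that did not pass. CCCTCCCC was found in 3 of 8 that rose, 2 of 5 that fell and 8 of 15 that did not pass, and TGANTCA in 0 of 8, 0 of 5 and 1 of 15 in the same order. These are letter matches in short windows and not measured binding.

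All 3 chains of collagen VI, which form beaded microfilaments between basement membrane and interstitial matrix, rose. This share of 100% compares with 12.8% of all genes that passed as higher and 23.1% in either direction. COL6A1 had 6714 and 6479 in COUP-TFII siRNA cells, against 4819 and 4853 in control cells, a difference of 0.45 ± 0.04 on the log2 scale (SE, limma adjusted p = 0.000122). COL6A2 had 1042 and 1140.2 in COUP-TFII siRNA cells, against 652 and 667 in control cells, a difference of 0.71 ± 0.07 on the log2 scale (SE, limma adjusted p = 0.000117). COL6A3, the longest chain of the trimer, had 2050.3 and 1770.5 in COUP-TFII siRNA cells, against 1198 and 1023 in control cells, a difference of 0.77 ± 0.09 on the log2 scale (SE, limma adjusted p = 0.000332). The groups were apart for each of the 3 genes. Both probe sets of COL6A2 passed, as did 3 of 8 for COL6A1. COL6A1 did not pass with its 8 probe sets averaged (0.32, limma adjusted p = 0.109), and COL6A1 and COL6A3 narrowly failed when limma used 1 prior variance for all genes in place of one that follows intensity (limma adjusted p = 0.0606 and 0.0513).

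Of the other 7 collagens measured, 2 fell and none rose, a share of 28.6%. Of all genes, 23.1% passed, 10.3% as lower. COL13A1, a transmembrane collagen of adhesion sites, had 1118 and 1163 in COUP-TFII siRNA cells, against 2593 and 2378 in control cells, a difference of −1.11 ± 0.06 on the log2 scale (SE, limma adjusted p = 5.57e-06). All 3 of its probe sets passed as lower, the others at −1.22 and −1.20, though both of those carry the _x_at mark of possible cross-hybridisation. COL8A1, a short-chain network collagen of vessel walls and Descemet's membrane, had 317 and 299 in COUP-TFII siRNA cells, against 673 and 579 in control cells, a difference of −0.98 ± 0.09 on the log2 scale (SE, limma adjusted p = 0.000103). With the 3 probe sets of COL8A1 averaged its change was −0.58 (limma adjusted p = 0.0887). COL18A1, the basement membrane collagen from which endostatin is cut, was measured at 735 and 826 in COUP-TFII siRNA cells against 772 and 794 in control cells, a log2 fold change of −0.01 (95% interval −0.18 to 0.16). COL12A1, a fibril-associated collagen, at 173 and 168 in COUP-TFII siRNA cells against 198 and 143 in control cells, and COL9A2, at 94.7 and 85.4 in COUP-TFII siRNA cells against 91.8 and 84.1 in control cells, had overlapping groups as well. The dimmer COL7A1, the collagen of anchoring fibrils, at 53.7 and 56.8 in COUP-TFII siRNA cells against 41.2 and 40.2 in control cells, and COL16A1, at 59.5 and 44.8 in COUP-TFII siRNA cells against 29.99 and 31.6 in control cells, had groups apart but did not pass (limma adjusted p = 0.265 and 0.1002).

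Of 9 laminin chains measured, 2 passed, both higher, a share of 22.2% against 23.1% of all genes. LAMB2, the beta-2 chain, had 394 and 386 in COUP-TFII siRNA cells, against 235 and 236 in control cells, a difference of 0.69 ± 0.09 on the log2 scale (SE, limma adjusted p = 0.000585). LAMC1, the gamma-1 chain shared by most laminins, had 727 and 753 in COUP-TFII siRNA cells, against 531 and 483 in control cells, a difference of 0.53 ± 0.08 on the log2 scale (SE, limma adjusted p = 0.00104). Groups were apart for both genes. The other LAMC1 probe set read 348 and 347 in COUP-TFII siRNA cells against 352 and 306 in control cells, and averaging the pair gave a log2 fold change of 0.30 that still passed. With 1 prior variance for all genes LAMC1 narrowly failed (limma adjusted p = 0.0548).

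LAMB3, a chain of laminin-332, which anchors epithelia through hemidesmosomes, had 2090.3 and 1987 in COUP-TFII siRNA cells, against 1924 and 2112 in control cells. Its log2 fold change of 0.02 had a 95% interval of −0.12 to 0.16. LAMA5, the alpha chain of laminin-511, had 1074 and 1171 in COUP-TFII siRNA cells against 1098 and 1065 in control cells, a log2 fold change of 0.05 (95% interval −0.10 to 0.20). These intervals exclude changes of the size seen for LAMB2. LAMB1 had 1252 and 1143 in COUP-TFII siRNA cells, against 1475 and 1318 in control cells, and LAMA4, an alpha chain of vessels and muscle, had 213 and 171 in COUP-TFII siRNA cells against 153 and 131 in control cells. The groups were apart for both, in opposite directions, at log2 fold changes of −0.22 (95% interval −0.39 to −0.05, limma adjusted p = 0.0651) and 0.39 (0.07 to 0.72, limma adjusted p = 0.0858). LAMB1 and LAMA4 each passed in 3 of 14 alternatives. Both did with the replicate number as a block (limma adjusted p = 0.0112 and 0.0375) and with dim genes left out (0.00948 and 0.00397). LAMA4 also passed with centring on housekeeping genes (limma adjusted p = 0.0246). The passes with dim genes left out carry little weight, as for COL5A2. LAMA4 was at 0.07 with averaged probe sets (limma adjusted p = 0.827) and at 0.25 without COUP-TFII siRNA replicate 1. LAMB1 was at −0.11 with centring on housekeeping genes (limma adjusted p = 0.411) and at −0.14 without control siRNA replicate 1. LAMA1, LAMA2 and LAMC3 did not exceed 38.8 on any array and did not pass.

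Of the 4 basement membrane linkers, AGRN alone passed, a share of 25% against 23.1% of all genes. AGRN, the heparan sulfate proteoglycan agrin, had 828 and 883 in COUP-TFII siRNA cells, against 720.5 and 689 in control cells, a difference of 0.27 ± 0.07 on the log2 scale (SE, limma adjusted p = 0.0193). The groups were apart, but the call was lost whichever array was left out (limma adjusted p = 0.0566 to 0.175), with 1 prior variance (0.153) and with its 4 probe sets averaged (log2 fold change 0.12, limma adjusted p = 0.539). HSPG2, perlecan, had 147 and 144 in COUP-TFII siRNA cells, against 133 and 121 in control cells, without passing. NID1, a nidogen that links laminin with collagen IV, had 298 and 269 in COUP-TFII siRNA cells against 295 and 286 in control cells, with a log2 fold change of −0.04 (95% interval −0.26 to 0.19). NID2 stayed below 13.8 on every array.

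Fibronectin and the matricellular proteins moved apart, with FN1 higher and SPARC and TNC lower. These 3 of 3 are a share of 100% that passed, against 23.1% of all genes. FN1 had 3750 and 3917 in COUP-TFII siRNA cells, against 2451 and 2004 in control cells, a difference of 0.79 ± 0.08 on the log2 scale (SE, limma adjusted p = 0.000205). Of its 7 probe sets 5 passed as higher, 3 of them marked _x_at with log2 fold changes from 0.64 to 0.68. The fifth was dim in control cells, at 53.4 and 55.6 in COUP-TFII siRNA cells against 10.4 and 11.03 in control cells (limma adjusted p = 0.00637 over all probe sets). The control values lie below the array medians, so no size of change is given for it.

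SPARC, a collagen-binding glycoprotein also called osteonectin, had 27.1 and 22.1 in COUP-TFII siRNA cells, against 112 and 109 in control cells, a difference of −1.64 ± 0.18 on the log2 scale (SE, limma adjusted p = 0.000243). The COUP-TFII siRNA values were below the median intensity of the arrays, so the size depends on the constant added before the logarithm, and was −2.13 with 1 added in place of 16 and −0.98 with 64 added. With 64 added or with averaged probe sets, COL4A1, COL4A2 and COL13A1 changed by more than SPARC. Its other probe set read 14.5 and 10.9 in COUP-TFII siRNA cells against 28.3 and 19.5 in control cells and did not pass, and averaging the pair gave −1.05, which passed. TNC, the de-adhesive glycoprotein tenascin-C, had 1118 and 981 in COUP-TFII siRNA cells, against 1456 and 1302 in control cells, a difference of −0.39 ± 0.08 on the log2 scale (SE, limma adjusted p = 0.00789). The groups of TNC were apart on this probe set. The mean of its 3 probe sets gave 0.11 in the other direction (limma adjusted p = 0.659), and the call was lost with 1 prior variance (0.131) and without COUP-TFII siRNA replicate 2, control siRNA replicate 1 or control siRNA replicate 2 (limma adjusted p = 0.108, 0.141 and 0.0584). The other probe sets of TNC lay between 2.02 and 24.4 on all arrays.

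Of the 2 lysyl oxidases 1 passed, a share of 50% against 23.1% of all genes. LOXL2, a lysyl oxidase that cross-links collagen IV, fell. It had 299 and 294 in COUP-TFII siRNA cells, against 421 and 473 in control cells, a difference of −0.57 ± 0.09 on the log2 scale (SE, limma adjusted p = 0.00205), with groups apart. Its other 3 probe sets did not exceed 35.1 on any array, and with all 4 averaged the log2 fold change was −0.19 (limma adjusted p = 0.488). The LOXL2 call was also lost without control siRNA replicate 2 (limma adjusted p = 0.0578) and narrowly with 1 prior variance (0.0529). LOX stayed between 25.2 and 32.2 on its probe set, with overlapping groups.

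**Figure D3:**
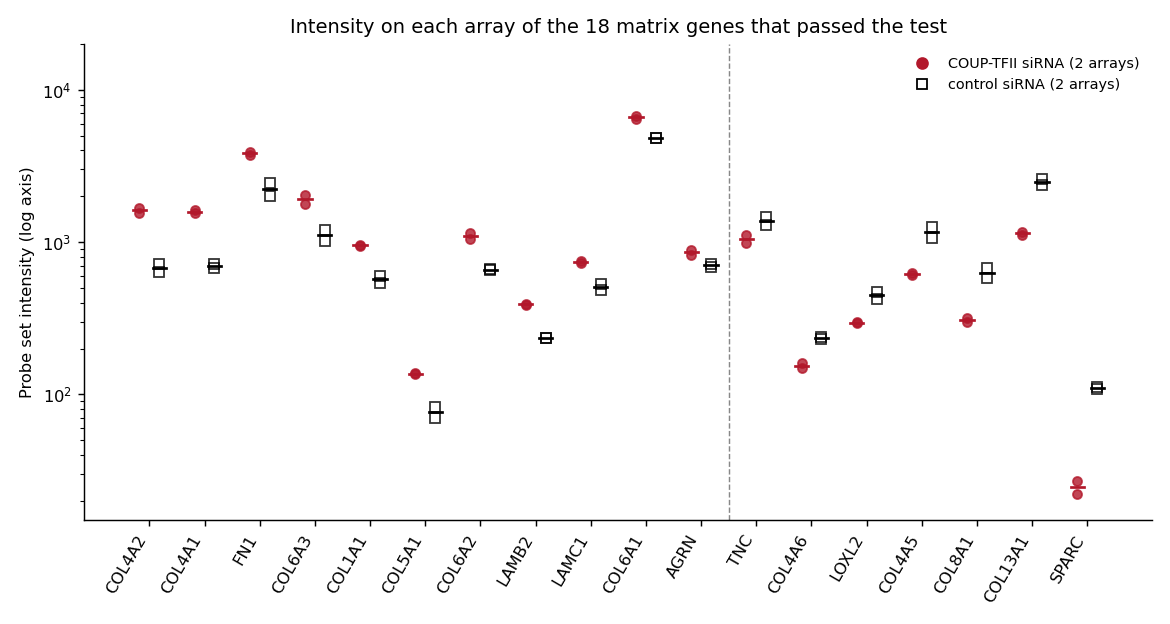
Probe set intensity on each array (log axis) of the 18 matrix genes that passed, ordered by log2 fold change (red circles, COUP-TFII siRNA; open squares, control siRNA; short lines, means of 2 arrays). The 11 genes left of the dashed line are higher after COUP-TFII siRNA and the 7 right of it lower, with no overlap between groups in any of the 18. These 18 were picked by the test on the same arrays, and groups did not overlap in 57.5% of all genes.

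The 10 genes whose probe set stayed under 60 on every array held none that passed (limma, 0 of 10; COL16A1 had an unadjusted p of 0.0285), against 147 of 8410 such genes among all genes. Of the 18 called genes, 16 exceeded 100 on all 4 arrays, against 3816 of 4563 called genes in all. Across the 112 probe sets, tested among all 54613 probe sets other than controls, 21 passed as higher and 9 as lower, against 12.2% of all probe sets in either direction (6.51% higher and 5.67% lower). More than 1 probe set was present for 16 of the 18 called genes, and 7 of these had at least 2 that passed in the gene's direction. No called gene of the 18 had a probe set that passed in the opposite direction. The same counts were not made over all genes, so there is no background for them. Probe sets of a gene target different stretches of its transcripts and share the RNA of the same arrays, so they are not replicates.

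**Figure D4:**
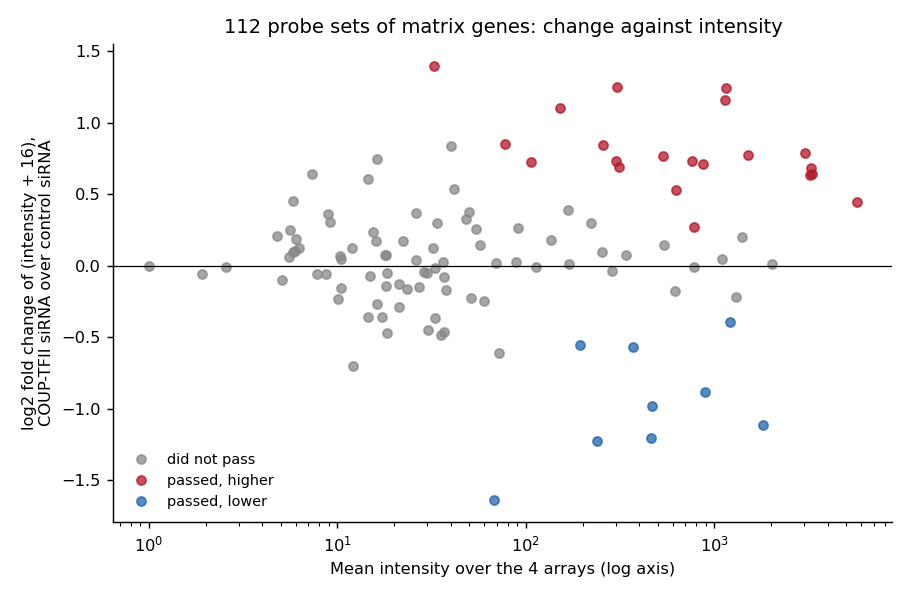
Log2 fold change of (intensity + 16), COUP-TFII siRNA over control siRNA, against mean intensity over the 4 arrays (log axis) for the 112 probe sets of matrix genes (red, passed as higher; blue, passed as lower; grey, did not pass). Most probe sets that passed lie to the right, at higher intensity, and 82 did not pass.

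Of 28 measured enzymes and chaperones of collagen synthesis and cross-linking, 9 were lower, 2 were higher and 17 did not pass. The share that passed was 39.3%, against 23.1% of all genes, and the list's median was −0.10 on the log2 scale. Dim genes rarely passed (147 of the 8410 under 60 on every array), and this list held 5 such genes of 28, against 8410 of all 19775. The part of intensity in this share was not tested. The lower ones held the prolyl 4-hydroxylase subunits P4HA1, P4HA2 and P4HB, PPIB (log2 fold change −0.22) and PLOD3. FKBP10, a collagen chaperone, was higher. PLOD3 and FKBP10 lay near the threshold (limma adjusted p = 0.0432 and 0.0424), and neither passed among all probe sets. Both the lower and the higher count depended on the arrays used, ranging from 3 to 8 and at 0 with 1 array left out. With centring on housekeeping genes, 6 were lower and 4 higher. CRTAP, a subunit of the prolyl 3-hydroxylase complex, had 869 and 1019.6 in COUP-TFII siRNA cells, against 2105 and 2091 in control cells, a difference of −1.14 ± 0.08 on the log2 scale (SE, limma adjusted p = 1.40e-05). COLGALT1, which adds galactose to hydroxylysine, had 438 and 441 in COUP-TFII siRNA cells against 720.4 and 757 in control cells, and ADAMTS3, a procollagen N-proteinase, had 199.96 and 192 in COUP-TFII siRNA cells against 358 and 302 in control cells. The ADAMTS3 call was lost without COUP-TFII siRNA replicate 2 or control siRNA replicate 1 (limma adjusted p = 0.0530 and 0.0529). The prolyl 4-hydroxylase gene P4HA3 had 165 and 162 in COUP-TFII siRNA cells against 100.5 and 113 in control cells, a log2 fold change of 0.55, and lost its call whichever array was left out (limma adjusted p = 0.0762 to 0.126), with 1 prior variance (0.0529) and with averaged probe sets (0.277).

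Among receptors of matrix proteins, 8 of 20 measured were higher, 4 were lower and 8 did not pass. The share that passed was 60%, against 23.1% of all genes, with a list median of 0.15 on the log2 scale. Only 2 of these 20 genes stayed under 60 on every array, against 8410 of all 19775 genes, where 147 passed. The part of intensity in this share was not tested either. ITGA3, ITGA5, ITGAV and ITGB4 were among the higher ones, and the lower ones were ITGA6, the syndecans SDC1 and SDC4, and CD44, the hyaluronan receptor. ITGA5 lay near the threshold (limma adjusted p = 0.0469) and did not pass among all probe sets. Of the 13 probe sets of CD44, 2 passed as lower and 1 as higher. ITGB3, the integrin beta-3 subunit, was dim in control cells, at 226 and 215 in COUP-TFII siRNA cells against 13.5 and 9.99 in control cells. SDC2, the proteoglycan syndecan-2, had 327 and 315 in COUP-TFII siRNA cells against 116 and 136 in control cells, and BCAM, a laminin alpha-5 receptor, had 288 and 322 in COUP-TFII siRNA cells against 119 and 118 in control cells. Log2 fold changes were 3.09 for ITGB3 (1.91 with 64 added and 1.06 with averaged probe sets), 1.25 for SDC2 and 1.25 for BCAM (0.61 with averaged probe sets). The ITGB3 control values lie below the array medians, so the size of its change depends on the constant added. Over the alternatives the ITGB3 change ran from 1.06 to 4.13. ITGA1, a collagen-binding integrin alpha subunit, had 118 and 104 in COUP-TFII siRNA cells against 47.3 and 41.7 in control cells, at a log2 fold change of 1.07, which was 0.69 with 64 added. ITGA1 did not pass with its probe sets averaged (0.41, limma adjusted p = 0.180) or without COUP-TFII siRNA replicate 1 (limma adjusted p = 0.0585).

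Other matrix proteins, including further collagens, fibrillins, thrombospondins and small proteoglycans, passed in 6 of 46 measured, 5 higher and 1 lower. The share that passed was 13.04%, below the 23.1% of all genes, and the list's median was −0.02 on the log2 scale. Of these 46 genes, 22 stayed under 60 on every array, against 8410 of all 19775 genes. The part of intensity in this lower share was not tested. The lower gene was the fibrillin FBN2, near the threshold (limma adjusted p = 0.0442) and not passing among all probe sets. Thrombospondin THBS1 was among the higher ones, at a log2 fold change of 0.14. With any array left out 3 were higher. VCAN, the proteoglycan versican, had 299.0 and 298.6 in COUP-TFII siRNA cells, against 149.6 and 124 in control cells. TGFBI, a collagen-binding protein named for its induction by TGF-beta, had 814 and 802 in COUP-TFII siRNA cells against 468 and 454 in control cells, and SPOCK1, a testican proteoglycan, had 1543 and 1437 in COUP-TFII siRNA cells against 1014 and 927 in control cells. Their log2 fold changes were 1.05 ± 0.12 for VCAN, 0.79 ± 0.07 for TGFBI and 0.61 ± 0.07 for SPOCK1 (SE), with groups apart for each. COL21A1, at 133 and 126 in COUP-TFII siRNA cells against 65.5 and 76.3 in control cells, passed with all arrays (limma adjusted p = 0.00749) but with none left out in turn (limma adjusted p = 0.0516 to 0.102).

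**Figure D5:**
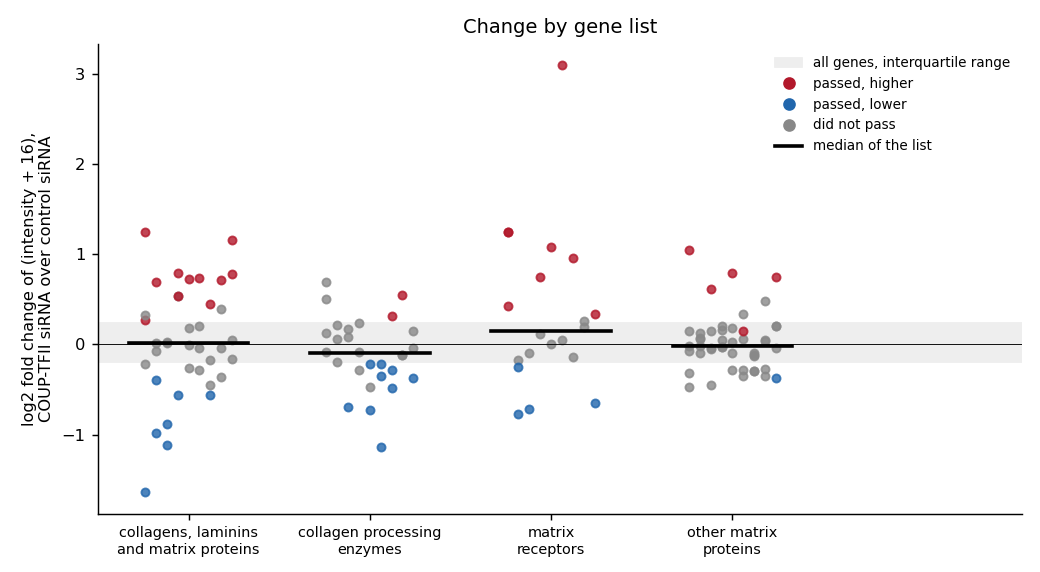
Log2 fold change of (intensity + 16), COUP-TFII siRNA over control siRNA, for each measured gene of 4 lists (points; red, passed as higher; blue, passed as lower; grey, did not pass; black lines, list medians; grey band, interquartile range of all genes). The 38 collagens, laminins and matrix proteins spread to both sides, with 11 higher and 7 lower, and the processing genes hold 2 higher and 9 lower. The difference between lists was not tested.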

How the data were processed

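The authors deposited 1 linear intensity per probe set and array, from 0.61 to 15890. How probes were summarised, corrected for background and normalized is not given in the sources used here, and no detection calls were used. Per the labels' protocols, RNA was amplified with a 3′ IVT kit and labelled with biotin. Array medians differed by 3.66%, within a limit of 5%, so nothing was rescaled. The platform annotation gave 1 gene to 41091 probe sets, several to 1801 and none to 11721, besides 62 controls. Symbols were updated through Entrez identifiers in RefSeq (41037 matched).

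Each gene was represented by its brightest single-gene probe set, avoiding _x_at where possible. limma 3.58.1 in R 4.3.3 (lmFit, eBayes with trend) had 2 residual degrees of freedom, 8.85 after moderation. The number of arrays limits the precision. The fit was tested on simulated data. The members, gene lists, motifs and tests were chosen with earlier results of these data known. Values per array are given for each called gene and the brightest of each role, and for up to 4 called genes per companion list, those with the largest changes. Other called genes of those lists are named without values per array, chosen after their values were seen. Alternatives changed the normalization, pseudocount, probe set choice, variance prior, filter, threshold, replicate block and arrays. Replicate numbers are not said to mark a shared culture, and deviations of same-numbered arrays correlated at 0.02.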

Additional observations from a re-analysis of the deposited data

How the results depend on the processing

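Among the 18 called matrix genes, COL4A1, COL4A2, COL4A5, COL6A2, COL13A1, LAMB2 and FN1 kept their call and direction in all 14 alternatives, and SPARC in the 13 that gave it a value. Of the 20 others, 4 passed in at least 1 alternative (COL5A2, COL16A1, LAMA4 and LAMB1). With 1 array left out, 9 to 10 matrix genes were higher and 4 to 7 lower, and 865 to 1231 and 875 to 1373 of all genes. For probe sets of matrix genes these counts were 4 to 11 and 3 to 6, for processing enzymes 0 and 3 to 8, for receptors 6 to 7 and 2 to 4, and for other matrix proteins 3 and 0 to 1. With 1 prior variance, 7 matrix genes were higher, as were 767 of all genes (822 lower), 3 probe sets of matrix genes (3 lower) and 0 processing enzymes (3 lower), while 2 receptors and 0 other matrix proteins were lower. Averaged probe sets left 3 matrix genes and 0 other matrix proteins lower and 1631 genes higher. At a threshold of 0.01, 1457 genes were higher and 1324 lower, with 0 processing enzymes higher and 0 other matrix proteins lower. With centring on 20 housekeeping genes, the median over all genes shifted up by 0.11 (log2) and the split of all calls to 3767 higher and 1396 lower, 73.0% higher against 55.3%. It gave 14 matrix genes higher and 7 lower, 4 processing enzymes higher, and 9 other matrix proteins higher and 0 lower. Of the 20 housekeeping genes themselves, 4 passed as higher and 3 as lower, with POLR2A at 1.04 and HPRT1 at −0.77 on the log2 scale. They are therefore not a fixed reference. Leaving out dim genes gave 8 other matrix proteins higher, and a pseudocount of 1 gave 0 lower. Sign changed without a call for TNC (0.11), COL3A1 (0.11), COL4A3 (0.12), COL9A2 (−0.22), COL18A1 (0.047) and LOX (0.077) with averaged probe sets, for COL4A3 (0.033), COL18A1 (0.10), NID1 (0.074) and LOX (0.069) with that centring, and for COL9A2 (−0.0025) and COL12A1 (−0.019) with quantile normalization. Leaving out 1 array gave ranges across 0 for COL12A1 (−0.20 to 0.23), COL18A1 (−0.089 to 0.076), COL1A2 (−0.43 to 0.088), COL4A3 (−0.41 to 0.26), COL9A2 (−0.035 to 0.092), LAMA5 (−0.011 to 0.11), LAMB3 (−0.051 to 0.082), LAMC3 (−0.66 to 0.13), LOX (−0.14 to 0.057) and NID1 (−0.10 to 0.034). With the replicate number as a block, 13 matrix genes were higher and 8 lower, and 2858 and 2274 of all genes. Fits with an array left out use fewer arrays, and the filter uses fewer genes. Leaving out dim genes gave more calls over all genes, 2996 higher and 2319 lower against 2524 and 2039. The cause of these shifts was not tested. The values carry no measure of signal over background, and changes of probe sets at intensities near 1 are not resolved.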
